A study of Mus musculus with 9 samples.

Results

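The cytosolic ribosomal protein genes are the genes whose products, with ribosomal RNA, form the large and small subunit of the ribosome. They were chosen by symbol (Rpl, Rps or Rplp followed by a number, and Rpsa), which gave 83 of the 23235 genes in the table, 51 of the large subunit and 32 of the small. Of these 83 genes, 77 code for proteins of the standard ribosome, and 6 are paralogs or a related assembly factor (Rpl3l, Rpl7l1, Rpl10l, Rpl22l1, Rpl39l and Rps27l). The choice by symbol leaves out, among others, Fau and Gnb2l1 (Rack1), which also code for ribosomal proteins, and Rpl36al.

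The study separated the nucleus from the cytoplasm of mouse oocytes by micromanipulation, in wild type (WT) and in oocytes without MTR4, the RNA helicase that hands nuclear transcripts to the RNA exosome for degradation. The 4 groups are the nuclei and the cytoplasms of day 21 oocytes of each genotype, with no other treatment given in the labels. Each sample pooled 10 nuclei or 10 cytoplasms, and the labels list 3 libraries of WT nuclei and 2 of each other group. The strain, the way the null allele was made and any promoter that drove a deletion are not given in the sources used here. The deposited table holds 1 column of FPKM (fragment counts divided by transcript length and by the library total) for each group. The table gives no values of single libraries, so no value has an SD or a test, and every difference below compares 2 columns with no replicate check. Differences are on the log2(FPKM + 1) scale, which understates those of low genes, and a gene counts as higher or lower where it is at least 2-fold apart on that scale. The background is the 14270 genes with at least 1 FPKM in at least 1 column, which include all 83 ribosomal protein genes.

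A ribosome holds each of its proteins in a fixed number, and the mRNAs of these proteins are among the most abundant of growing cells. Most of these mRNAs start with a run of pyrimidines, the 5′ terminal oligopyrimidine (TOP) tract, through which mTOR signalling and LARP1 set their translation. The oocyte builds up ribosomes while it grows, for use after fertilisation. Mammalian genomes also carry many processed copies of ribosomal protein mRNAs, inserted without introns, and introns of many ribosomal protein genes hold small nucleolar RNAs (snoRNAs), which guide the modification of ribosomal RNA.

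How far the starts of these genes vary is shown by 5 windows, from 15 bases before to 15 bases after the start site, taken from RefSeq on GRCm38.p6. Capitals mark the longest run of C and T that touches the start base or the 5 bases on either side. Rps27 and Rpl35a have long runs (the other 2 starts listed for Rpl35a have runs of 4 bases and 1 base), Rps21 a shorter one that begins just before a C start (its other listed start has a run of 4), and Rpl26 and Rps3 little or none. These members were taken because their values stand out below or, for Rpl35a, as an example of a long run.
Rps27 (chr3:90213634-90213663, minus strand): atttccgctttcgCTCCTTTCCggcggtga
Rpl35a (chr16:33056467-33056496, plus strand): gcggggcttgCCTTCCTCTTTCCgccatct
Rps21 (chr2:180257364-180257393, plus strand): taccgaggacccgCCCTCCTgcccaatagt
Rpl26 (chr11:68901551-68901580, plus strand): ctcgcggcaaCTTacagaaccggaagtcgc
Rps3 (chr7:99483695-99483724, minus strand): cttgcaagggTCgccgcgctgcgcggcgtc

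Start windows were available for 63 of the 83 genes. A run of at least 8 C or T at one of a gene's starts was present in 24 of them (38.1%), against 11.4% of the 27025 genes with such a window. Large and small subunit genes had nearly the same share, 38.5% and 37.5%. A C at the start base followed by at least 4 more C or T was present in 20.6% of members and 3.01% of all genes. The letters CTTTC or CTTCC, on the coding strand and within 10 bases of the start, were present in 27.0% and 8.17%. These are matches of letters at annotated starts, not measured starts in oocytes.

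The transcript of Mtr4 itself, listed as Skiv2l2, stood at 16.2 FPKM in WT nuclei and 2.91 in MTR4-null nuclei, and at 21.6 and 2.51 in the 2 cytoplasms. Genes of small RNAs held 57.7% of the FPKM sum in WT nuclei, 53.5% in MTR4-null nuclei, 4.09% in WT cytoplasm and 39.0% in MTR4-null cytoplasm. Scarna2 alone stood at 361725 FPKM in WT nuclei, 370466 in MTR4-null nuclei and 100235 in MTR4-null cytoplasm. The column sums were 854286, 880989 and 433013, so the small RNA shares of these columns rest largely on this gene. FPKM is relative to such totals, and the read depth is unknown. For cells other than the pooled oocytes, fewer cells cannot be told apart from less RNA per cell. Oocyte markers were at 23.4 FPKM or more in every column (10 of 10 genes, Figla the lowest), with Zp3 between 1369 and 2252. Granulosa cell markers summed to between 44.6 and 55.5 FPKM over 11 of 12 genes, of which Inha (11.9 to 21.4) and Nr5a2 (12.4 to 19.0) made up more than the rest, while the receptor gene Fshr, the gene left out of the sum, stood at 0.43 or less and Amh was listed at 0 in WT nuclei. Of 4 blood markers, Alas2 stood at 2.34 FPKM in WT nuclei and at 1.10 or less in the other columns, and Hbb-b1, Hba-a1 and Ptprc at 0.11 or less in every column. Their part in the results was not tested.

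Ribosomal protein transcripts were abundant in both compartments and both genotypes. The median over the 83 genes was 101 FPKM in WT nuclei, 129 in MTR4-null nuclei, 113 in WT cytoplasm and 83.6 in MTR4-null cytoplasm. Over all 14270 genes the medians were 7.46, 10.6, 6.86 and 6.60 FPKM in the same order. Together the 83 genes made up 2.84%, 3.18%, 2.83% and 3.23% of the FPKM outside small RNAs, so that their combined share was higher in the MTR4-null column of each compartment.

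**Figure D1:**
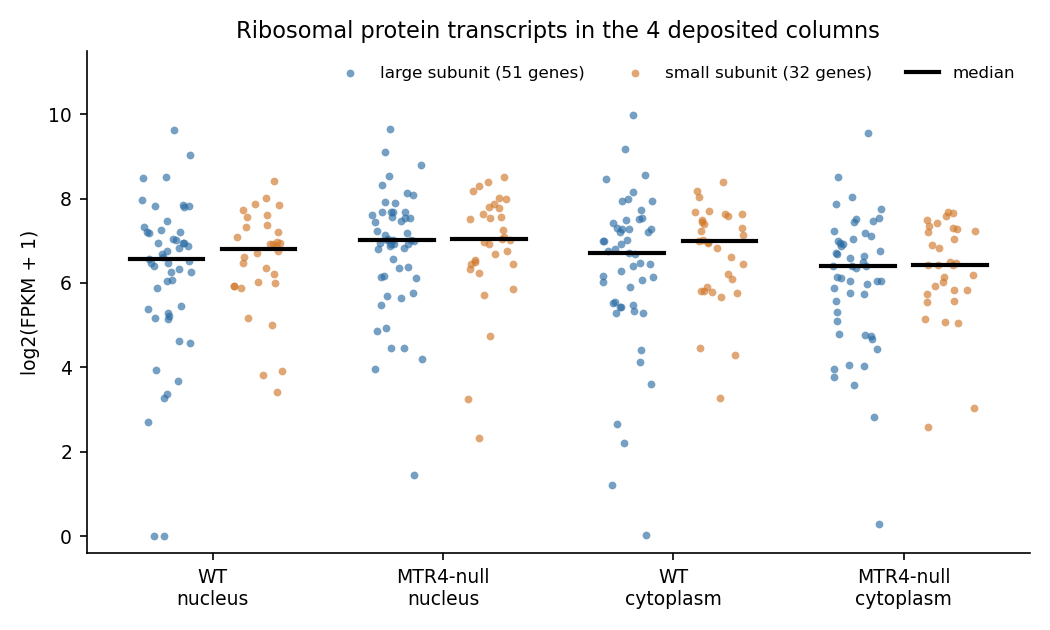
Level of every ribosomal protein gene in the 4 deposited columns, as log2(FPKM + 1) on the vertical axis, with 51 large subunit genes in blue and 32 small subunit genes in orange; each point is 1 gene and black bars are medians. The large subunit median lies below that of the small in the WT columns, and the large subunit holds both the highest gene (Rpl41) and the lowest (Rpl3l).

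The order of the genes was led by Rpl41 and Rpl35 in all columns. Rpl41, which codes for a very short basic protein of the large subunit, was the highest member throughout, at 791 FPKM in WT nuclei, 807 in MTR4-null nuclei, 1002 in WT cytoplasm and 744 in MTR4-null cytoplasm. Rpl35, whose product sits near the exit of the peptide tunnel, followed at 520, 548, 577 and 362, and Rpl28 stood at 362, 371, 377 and 260, below Rplp1 (445) in MTR4-null nuclei. Rpl41 has the shortest coding sequence of these genes (75 nt), and the selected cDNA was 300 to 400 bp. The length of its whole transcript was not compared with that size, and the sources used here do not say how length was corrected. In the small subunit the 3 highest by mean were Rps2, Rps12 and Rps29, with Rps2 at 258, 364, 291 and 202 and Rps12 at 340, 235, 336 and 157.

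At the low end of the large subunit were 3 paralogs, Rpl3l, Rpl10l and Rpl22l1, described below. The lowest small subunit genes were Rps15a (9.68, 8.57, 8.69 and 7.25 FPKM), Rps27 (14.1, 3.99, 18.7 and 4.97) and Rps3 (13.1, 51.9, 20.9 and 34.2). Rps15a was low and flat, while Rps27 and Rps3 differed between genotypes in opposite directions.

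The large subunit held a near-constant share of the family. Its summed FPKM was 1.69 times that of the small subunit in WT nuclei, 1.67 times in MTR4-null nuclei, 1.72 times in WT cytoplasm and 1.71 times in MTR4-null cytoplasm. The ratio of the medians was 0.85 in WT nuclei and 0.83 in WT cytoplasm, and 0.99 and 0.98 in the MTR4-null columns. The medians of the 2 subunits therefore lay closer together in both MTR4-null columns, while the sums kept their ratio. Both ratios are taken within a column and do not depend on its scaling. Without the paralogs and Rpl7l1 the large and small subunit medians were 104 and 116 FPKM in WT nuclei and 115 and 127 in WT cytoplasm. They were 130 and 131 in MTR4-null nuclei and 86.5 and 85.0 in MTR4-null cytoplasm.

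In the nucleus, ribosomal protein transcripts stood higher without MTR4. The median difference (MTR4-null minus WT) was 0.51, against 0.21 over all genes, and 63 of the 83 genes lay above 0. At least 2-fold higher were 15 members, or 18.1%, where the background is 23.9%, and 1 member (1.2%) was at least 2-fold lower, where the background is 12.3%. The median of the family thus lay above that of all genes, with a smaller share past 2-fold than the background in both directions. Scaled to the median of genes with at least 1 FPKM in every column the median was 0.31, and rescaled to the FPKM outside small RNAs it was 0.33, with 8 and 9 members higher and 1 lower. Over all genes the medians were then 0.0077 and 0.055, with 19.1% and 20.2% of genes higher and 16.3% and 14.6% lower.

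Among large subunit genes, Rpl26 differed most. Its protein (uL24) lies by the exit tunnel and also binds the p53 mRNA. It was listed at 0.00107 FPKM in WT nuclei, 68.5 in MTR4-null nuclei, 5.30 in WT cytoplasm and 26.0 in MTR4-null cytoplasm, a nuclear difference of 6.12. Summed with its listed near-identical copy Gm15772, described below, its difference was 0.21 in the nucleus and -0.56 in the cytoplasm. Rpl37a, a zinc finger protein of the large subunit, stood at 66.2 in WT nuclei, 206 in MTR4-null nuclei, 58.9 in WT cytoplasm and 98.9 in MTR4-null cytoplasm (1.62 in the nucleus). On their own rows both were higher without MTR4 in each compartment, Rpl37a by under 2-fold in the cytoplasm (0.74).

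Rpl13, whose transcript also hosts a snoRNA, stood at 96.3 FPKM in WT nuclei and 205 in MTR4-null nuclei (1.08), but at 146 and 122 in the cytoplasms (-0.26). Rpl9, Rpl12, Rpl31 and Rpl23 passed the 2-fold line by less, with nuclear differences of 1.07, 1.07, 1.02 and 1.0. Just under the line were Rps19, at 0.999, and Rpl8, at 0.97. The small gaps between these genes show how much a count past 2-fold rests on where the line falls.

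Among small subunit genes, Rps3 differed most. Rps3 (uS3) lines the channel where mRNA enters, and has a further role in DNA repair. It stood at 13.1 FPKM in WT nuclei and 51.9 in MTR4-null nuclei (1.90), and at 20.9 and 34.2 in the cytoplasms (0.68). Rps20 (uS10), of the small subunit head, stood at 121 in WT nuclei and 315 in MTR4-null nuclei (1.37), with 129 and 87.6 in the cytoplasms (-0.55). Rpsa, known also as the laminin receptor, had 31.1 and 74.4 in the nuclei (1.23) and 67.3 and 46.3 in the cytoplasms (-0.53). Rps16 (uS9), whose tail reaches the tRNA in the P site, had 146 and 333 in the nuclei (1.18) and 148 and 205 in the cytoplasms (0.46). Of these 4 genes, Rps20 and Rpsa were higher in MTR4-null nuclei and lower in MTR4-null cytoplasm, while Rps3 and Rps16 were higher in both.

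The 1 member past 2-fold lower in MTR4-null nuclei was Rps27. It codes for a zinc finger protein (eS27) and stood at 14.1 FPKM in WT nuclei, 3.99 in MTR4-null nuclei, 18.7 in WT cytoplasm and 4.97 in MTR4-null cytoplasm. The nuclear difference was -1.59 and the cytoplasmic one -1.72, both past 2-fold under all 4 scalings compared. No other of the 83 genes was at least 2-fold lower in both compartments.

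Past 2-fold higher in the nucleus under all 4 scalings were 8 genes: Rpl26, Rpl37a, Rps3, Rps20, Rpsa and the related genes Rpl3l, Rpl7l1 and Rpl10l. Of these, Rpl26 was under 2-fold (0.21) when summed with its copy.

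**Figure D2:**
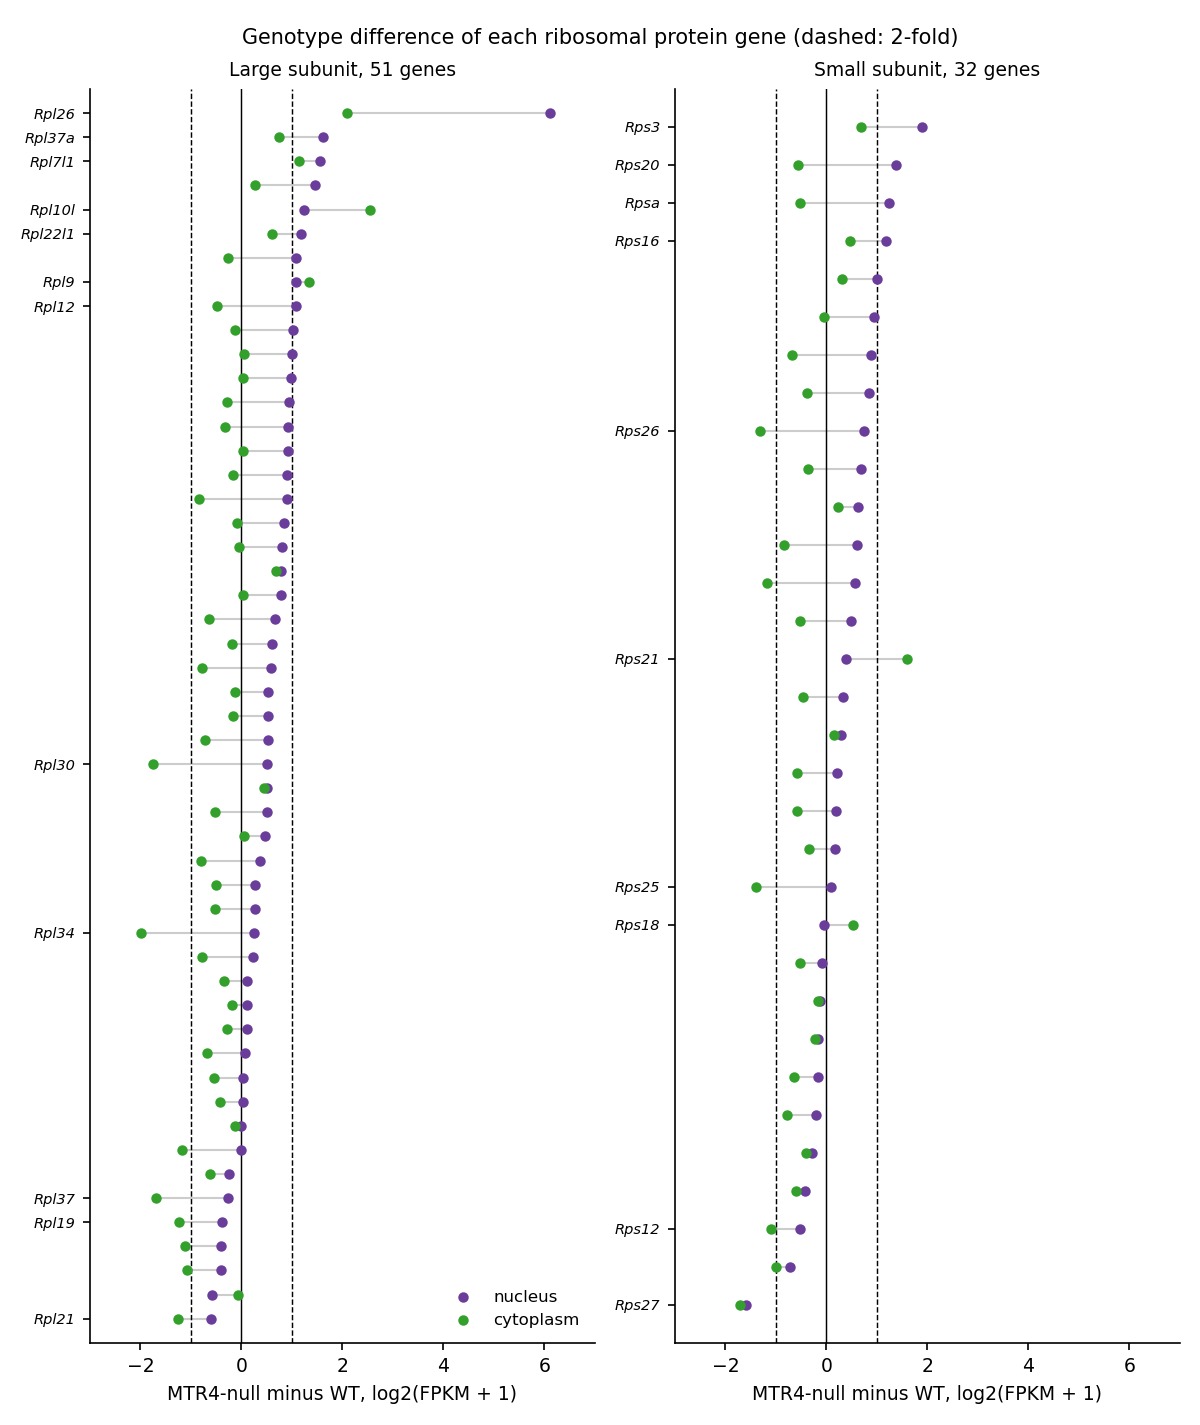
Genotype difference (MTR4-null minus WT, log2(FPKM + 1), horizontal axis) of every ribosomal protein gene in the nucleus (purple) and the cytoplasm (green), large subunit left and small subunit right, ordered by the nuclear difference; dashed lines mark 2-fold, and a selection of genes is labelled. Most purple points lie right of 0 and most green points left of it on the deposited scale (the cytoplasmic median of -0.39 became 0.13 and 0.20 under 2 other scalings), Rpl26 lies far right at 6.12, and Rps27 lies left of the dashed line in both compartments.

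In the cytoplasm the family stood lower without MTR4 on the deposited scale, but this direction depended on the scaling. The median difference was -0.39, against -0.26 over all genes and -0.54 over genes with a mean of at least 5 FPKM, and it became 0.13 when centred on genes with at least 1 FPKM in every column and 0.20 when rescaled without small RNAs. At least 2-fold lower were 13 members (15.7%), where the background is 21.4%, and 5 (6.02%) were higher, where the background is 15.0%. The split of 5 higher and 13 lower became 10 and 4 with the first of those scalings, 12 and 4 with the second, and 6 and 6 when centred on all 14270 genes. Over all genes the shares higher and lower were 24.7% and 6.94%, 22.6% and 7.51%, and 19.6% and 13.0% in the same order. The medians of all genes were 0.26 with the first scaling and 0.11 with the second.

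The 5 genes higher in MTR4-null cytoplasm were Rpl10l, Rpl26, Rps21, Rpl9 and Rpl7l1, and all 5 were past 2-fold under the 4 scalings, but Rpl26 turned from 2.1 to -0.56 when summed with its copy. Rps21 (eS21) stood at 116 FPKM in WT nuclei, 151 in MTR4-null nuclei, 55.2 in WT cytoplasm and 170 in MTR4-null cytoplasm, a cytoplasmic difference of 1.60. The WT cytoplasm was thus the low column of the 4. Rpl9 (uL6) stood at 23.6, 50.8, 20.4 and 52.9 in the same order, higher without MTR4 in the nucleus (1.07) and the cytoplasm (1.33).

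The largest negative differences in the cytoplasm were those of Rpl34, Rpl30, Rps27 and Rpl37. Rpl34 stood at 145 FPKM in WT nuclei, 173 in MTR4-null nuclei, 64.4 in WT cytoplasm and 15.5 in MTR4-null cytoplasm (-1.99). Rpl30 (eL30), which in other species binds its own transcript, stood at 11.9, 17.3, 39.4 and 11.0 (-1.75). Rpl37 (eL37), a zinc finger protein, stood at 146, 120, 170 and 52.2 (-1.68). For Rpl34 and Rpl37 the MTR4-null cytoplasm was the low column, while for Rpl30 the WT cytoplasm was the high one. These 3 genes and Rps27 were the 4 that stayed past 2-fold under every scaling compared, but summed with their listed copies Rpl34 was at -0.76 and Rpl30 at -0.56, both under 2-fold.

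The next in size were Rps25 (eS25), used in initiation at some viral internal entry sites, and Rps26 (eS26), at the exit of the mRNA channel. Rps25 stood at 80.9 FPKM in WT nuclei, 85.8 in MTR4-null nuclei, 86.4 in WT cytoplasm and 32.3 in MTR4-null cytoplasm (-1.39), and Rps26 at 73.4, 124, 141 and 56.0 (-1.31). Also past 2-fold were Rpl21, Rpl19 and Rpl5 at -1.25, -1.23 and -1.18. Rpl4, Rps12 and Rpl17 were at -1.11, -1.10 and -1.07, and Rps13, at -0.9985, fell just outside the 2-fold line. Of these, Rpl5 is part of the 5S ribonucleoprotein, which binds Mdm2, and stood at 122, 121, 157 and 68.9.

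Read gene by gene, 43 of the 83 genes were higher in MTR4-null nuclei and lower in MTR4-null cytoplasm. Another 20 were higher in both compartments, 19 lower in both, and 1 (Rps18) lower in the nucleus and higher in the cytoplasm. Over all genes the counts were 3795, 4410, 4735 and 1100 of 14270 in the same order. The nuclear and the cytoplasmic genotype comparison share no column, but each of these signs depends on the scaling of its columns.

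By median, the large subunit lay above the small in both genotype comparisons. In the nucleus the median difference was 0.53 over the 51 large subunit genes and 0.31 over the 32 small subunit genes, with 11 higher and 0 lower in the large and 4 higher and 1 lower in the small. In the cytoplasm the medians were -0.28 and -0.53, with 4 higher and 8 lower in the large and 1 higher and 5 lower in the small. As shares, 21.6% of the large subunit genes and a smaller part of the small stood higher in the nucleus, where the background is 23.9%. Higher in the cytoplasm were 7.84% and 3.12%, where the background is 15.0%. The cytoplasmic shares lower were nearly the same, 15.7% and 15.6%, where the background is 21.4%. The large subunit median exceeded the small by 0.22 in the nucleus and 0.25 in the cytoplasm, a gap that centring leaves as it is. Without the paralogs and Rpl7l1 the gaps were 0.20 and 0.22. The middle 50% of genes ran from 0.10 to 0.94 for the large and from -0.14 to 0.77 for the small subunit in the nucleus, so the 2 sets overlapped over most of their range.

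By position in the ribosome, the stalk genes showed the highest nuclear median. The stalk binds the translation factors, and its 4 genes (Rplp0, Rplp1, Rplp2 and Rpl12) had nuclear differences from -0.01 (Rplp2) to 1.07 (Rpl12), with a median of 0.93. Rplp1 stood at 229 FPKM in WT nuclei, 445 in MTR4-null nuclei, 285 in WT cytoplasm and 235 in MTR4-null cytoplasm, while its partner Rplp2 stood at 129, 129, 126 and 116. The partners, which form a dimer on the stalk, thus differed between nuclei in 1 case and not in the other. In the cytoplasm the 4 genes ran from -0.49 to -0.13.

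The 12 genes near the peptidyl transferase centre or the exit tunnel ran from -0.59 (Rpl39) to 6.12 (Rpl26) in the nucleus, with a median of 0.25, and from -1.23 (Rpl19) to 2.1 (Rpl26) in the cytoplasm, with a median of -0.60. The 5S particle genes Rpl5 and Rpl11 stood at -0.01 and 0.28 in the nucleus and at -1.18 and -0.50 in the cytoplasm. The 14 genes of the small subunit head, platform and mRNA path ran from -0.53 (Rps12) to 1.90 (Rps3) in the nucleus, with a median of 0.71, and from -1.31 (Rps26) to 0.68 (Rps3) in the cytoplasm, with a median of -0.46. The nuclear medians of these groups thus spanned from 0.13, over the 2 genes of the 5S particle, to 0.93.

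For 18 of the 83 genes, mutations in people are known to cause Diamond-Blackfan anaemia, a failure of red cell formation. In the nucleus 2 of these 18 were higher and 1 lower (median 0.30), and in the cytoplasm 1 was higher and 3 lower (median -0.48), beside medians of 0.51 and -0.39 over all 83 genes. Their shares, 11.1% higher and 5.56% lower in the nucleus and 5.56% and 16.7% in the cytoplasm, lay below the background of 23.9%, 12.3%, 15.0% and 21.4%.

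The paralogs had higher median genotype differences than the family. All 6 were higher in MTR4-null nuclei, 4 of them (66.7%) by at least 2-fold, where the background is 23.9%. Among these 4, Rpl3l stood at only 0 and 1.75 FPKM in the nuclei. In the cytoplasm 2 (33.3%) were at least 2-fold higher and 0 lower, where the background is 15.0% and 21.4%. The median differences of the 6 were 1.22 in the nucleus and 0.44 in the cytoplasm. Rpl10l, a retrogene that replaces X-linked Rpl10 during male meiosis, stood at 5.56 FPKM in WT nuclei, 14.6 in MTR4-null nuclei, 1.33 in WT cytoplasm and 12.7 in MTR4-null cytoplasm, with differences of 1.25 and 2.55. Its parent Rpl10 stood at 175, 206, 247 and 143 (0.23 and -0.78). Rpl10l was therefore higher in MTR4-null than in WT in both compartments, though below Rpl10 in every column. Rpl10 was lower in MTR4-null than in WT cytoplasm. The coding sequences of the 2 are 84.7% identical.

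Rpl7l1, related to Rpl7 and known from assembly of the large subunit, stood at 9.40 FPKM in WT nuclei, 29.8 in MTR4-null nuclei, 11.3 in WT cytoplasm and 26.2 in MTR4-null cytoplasm (1.56 and 1.15), and Rpl7 at 83.0, 150, 112 and 104 (0.85 and -0.09). Rpl22l1 stood at 8.67, 20.97, 3.61 and 6.06 (1.18 and 0.61) beside Rpl22 at 14.2, 20.97, 16.4 and 14.5 (0.53 and -0.16). Rpl3l, known from striated muscle, was listed at 0 in WT nuclei and stood at 1.75, 0.015 and 0.22 in the other columns, far below Rpl3 (23.0, 43.7, 38.2 and 20.8). In these 3 pairs the parent was the more abundant of the 2, except that Rpl22 and Rpl22l1 were equal to within rounding in MTR4-null nuclei.

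Rps27l, known as a target of p53, was the 1 paralog above its parent. It stood at 64.5 FPKM in WT nuclei, 79.2 in MTR4-null nuclei, 53.3 in WT cytoplasm and 59.7 in MTR4-null cytoplasm, against 14.1, 3.99, 18.7 and 4.97 for Rps27. The difference between genotypes was 0.29 and 0.16 for Rps27l and -1.59 and -1.72 for Rps27. Rpl39l, known from the testis, stood at 38.0, 49.2, 43.6 and 24.7 beside Rpl39 at 357, 237, 185 and 175. The coding sequences of these pairs are 76.2% and 85.0% identical.

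**Figure D3:**
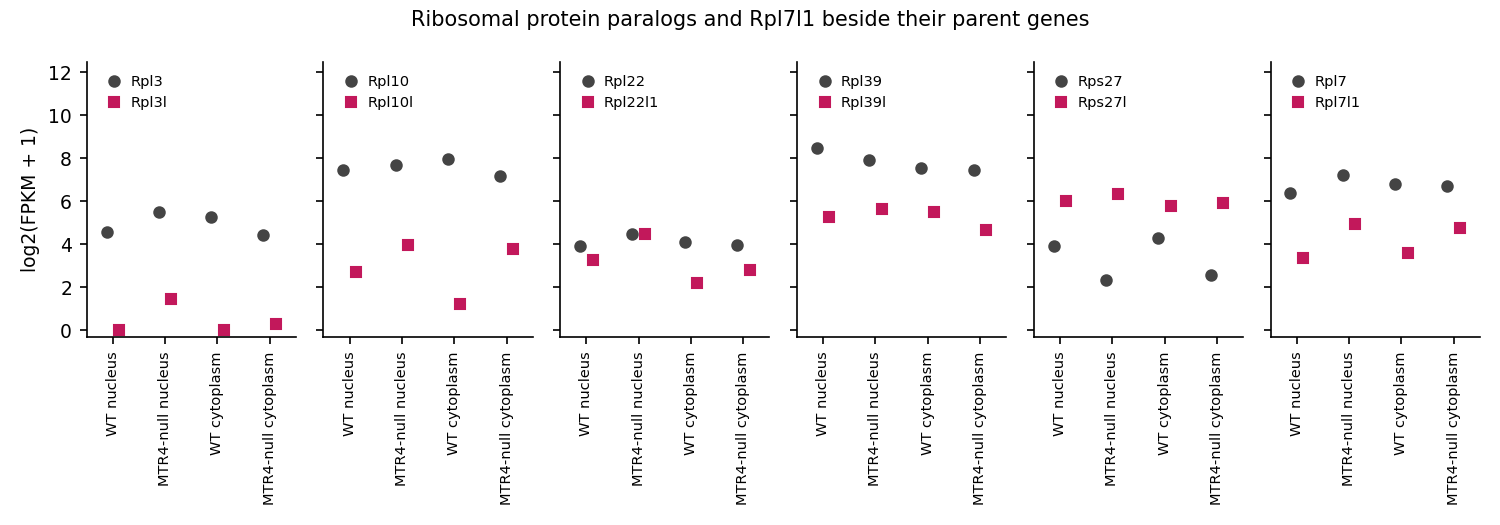
Levels of 5 paralogs and Rpl7l1 (pink squares) beside their parent genes (grey circles) in the 4 columns, as log2(FPKM + 1); each point is the deposited value of 1 gene. Rps27l lies above Rps27 in every column, and Rpl10l is lowest in WT cytoplasm (1.33 FPKM) and highest in MTR4-null nuclei (14.6 FPKM).

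Most members share nearly all of their coding sequence with processed copies. In the GENCODE M21 annotation of GRCm38, 76 of the 83 genes have at least 1 processed pseudogene elsewhere that matches at least 80% of the coding sequence with at least 95% identity. There were 564 such copies in all, with a median of 5 per gene, and 16 genes had over 10, led by Rpl21 with 56. For 20 genes a copy is identical over the matched stretch, so reads within it cannot be told apart by sequence. Genes with no such copy include Rpl3l, Rpl8, Rpl39l, Rplp2, Rps3 and Rps27l. The sources used here do not say how reads that match several places were counted.

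The table lists a near-identical copy for 7 members. For Rpl26, Rpl30 and Rpl34 the copy carries much of the FPKM, and the coding sequences of member and copy differ at 2, 1 and 2 bases. The following stretches of 60 coding bases, from GENCODE M21, each hold 1 of those differences in capitals. They cover bases 118 to 177 of the Rpl26 coding sequence, 37 to 96 of Rpl30 and 73 to 132 of Rpl34. They are shown because these few bases are all that separates the reads of gene and copy within the coding sequence.
Rpl26: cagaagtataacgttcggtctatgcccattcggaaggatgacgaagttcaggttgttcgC
Gm15772: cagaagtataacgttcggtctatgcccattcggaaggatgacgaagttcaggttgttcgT
Rpl30: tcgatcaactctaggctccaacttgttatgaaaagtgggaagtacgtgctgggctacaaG
Gm12191: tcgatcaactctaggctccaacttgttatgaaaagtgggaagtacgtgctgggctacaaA
Rpl34: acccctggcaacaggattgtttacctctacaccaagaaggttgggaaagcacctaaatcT
Rpl34-ps1: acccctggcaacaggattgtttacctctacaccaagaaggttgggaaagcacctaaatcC

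Rpl26 and its copy Gm15772 differed between genotypes in opposite directions. Where Rpl26 was listed at 0.00107, 68.5, 5.30 and 26.0 FPKM in WT nuclei, MTR4-null nucleus, WT cytoplasm and MTR4-null cytoplasm, Gm15772 was listed at 139.8, 93.2, 152 and 80.6. Their sums were 139.8, 162, 158 and 107. The nuclear genotype difference was 6.12 for Rpl26, -0.58 for Gm15772 and 0.21 for the sum, and the cytoplasmic one 2.1, -0.91 and -0.56. The sum thus lay within the range of the other members in both compartments, and neither of its differences reached 2-fold.

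Rpl30 and Gm12191 summed to 116, 124, 98.1 and 66.1 FPKM in the same order. The cytoplasmic difference was -1.75 for Rpl30, -0.09 for Gm12191 and -0.56 for the sum. Rpl34 and Rpl34-ps1 summed to 163, 272, 155 and 91.3, with a cytoplasmic difference of -1.99 for Rpl34, -0.25 for the copy and -0.76 for the sum. For both members the sum was under 2-fold apart between the cytoplasms. For the other 4 pairs (Rpl22l1, Rpl29, Rps19 and Rps26) the copy stood at 10.6 FPKM or less and the sums differed little from the member alone.

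With every member summed with its listed copy, 15 members were higher and 1 lower in the nucleus, with a median of 0.50, and 4 were higher and 11 lower in the cytoplasm, with a median of -0.40. The family medians therefore did not rest on these 7 pairs, while the extreme values of Rpl26, Rpl30 and Rpl34 did. Among the 15 higher in the nucleus, Rps19 (0.999 alone and 1.01 summed) took the place of Rpl26 (6.12 and 0.21).

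**Figure D4:**
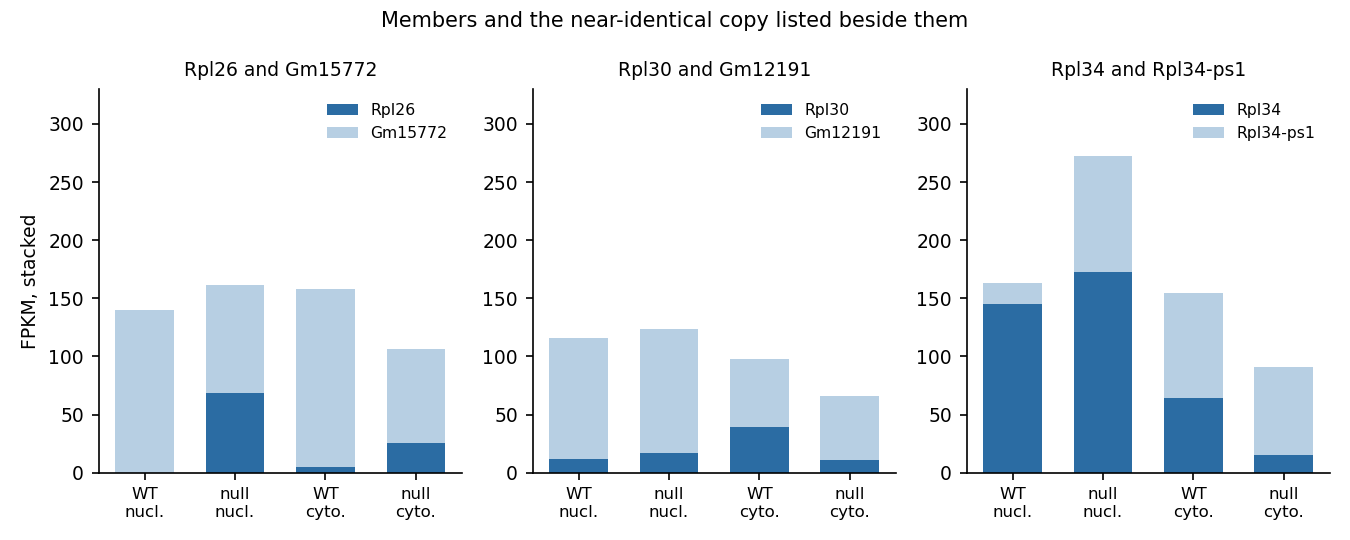
FPKM of Rpl26, Rpl30 and Rpl34 (dark) stacked with that of the near-identical copy listed in the table (light), in the 4 columns; bars start at 0. Rpl26 is not visible in the bar of WT nuclei (0.00107 FPKM), while the whole bar differs little between the nuclei (139.8 and 162 FPKM).

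Copies not listed as genes of their own could not be summed. Grouped by number of copies, the median cytoplasmic difference was 0.03 over the 7 genes with none, -0.34 over the 38 with 1 to 5, -0.43 over the 22 with 6 to 10 and -0.53 over the 16 with more. The nuclear medians were 0.68, 0.51, 0.56 and 0.39 in the same order. Across the 83 genes, Spearman's rho between the number of copies and the difference was -0.25 in the cytoplasm and -0.21 in the nucleus, given as a description, since the genes share the same columns. Of the 7 genes with no copy, 3 are paralogs.

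The processed gene Rplp2-ps1 is also listed, though it did not meet the identity rule. It stood at 6.55 FPKM in WT nuclei, 68.5 in MTR4-null nuclei, 0.0004 in WT cytoplasm and 73.2 in MTR4-null cytoplasm. It was thus high in both MTR4-null columns, beside a nearly flat Rplp2.

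The medians of members with and without a pyrimidine run at the start also differed. Over the 24 genes with a run of at least 8 C or T at the start, such as Rps27 and Rpl35a above, the median difference was 0.19 in the nucleus and -0.53 in the cytoplasm. Over the 39 with a shorter run, such as Rpl26 and Rps3, it was 0.53 and -0.19. At least 2-fold higher in the nucleus were 1 of the 24 (4.17%) and 13 of the 39 (33.3%), where the background is 23.9%. The 1 is the paralog Rpl22l1, which did not stay past 2-fold under all 4 scalings. Of the 13, only Rpl26, Rpl37a, Rps3, Rpsa and the related genes Rpl3l, Rpl7l1 and Rpl10l did. Rpl26 was at 0.21 when summed with its copy. Rpl35a, in the first set, stood nonetheless at 107 and 186 FPKM in the nuclei and at 77.5 and 126 in the cytoplasms.

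SnoRNAs lie inside 30 of the 83 genes, 58 in the annotation, of which 31 are listed in the table. Of these 31, 6 were listed at 0 in every column, and, counting any difference and not only those past 2-fold, 13 had a larger and 12 a smaller value in MTR4-null than in WT nuclei. Listed at 0 in WT nuclei and above 0 in MTR4-null nuclei were 9. Above 0 were 3 in WT cytoplasm and 14 in MTR4-null cytoplasm, with sums of 28.3 and 1635 FPKM, against 5215 and 4462 in the nuclei. The listed snoRNAs thus stood far higher in MTR4-null than in WT cytoplasm. So did the sum of small RNAs (39.0% and 4.09% of the FPKM sum), though Scarna2 alone stood at 100235 FPKM in MTR4-null cytoplasm.

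A box C/D snoRNA is shown for each direction, with GENCODE M21 coordinates on GRCm38. Capitals mark the first TGATGA and the last CTGA, the letters of the C and D boxes. The second serves to compare with its host, Rps3.
Snord33 in Rpl13a (chr7:45126864-45126947, minus strand): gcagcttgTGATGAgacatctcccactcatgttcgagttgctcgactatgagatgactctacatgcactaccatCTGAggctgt
Snord15b in Rps3 (chr7:99479563-99479707, minus strand): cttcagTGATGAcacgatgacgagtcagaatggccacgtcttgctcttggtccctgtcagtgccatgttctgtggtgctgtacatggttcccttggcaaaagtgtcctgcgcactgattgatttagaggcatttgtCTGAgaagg

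Snord33, of 84 nt, was listed at 0 FPKM in WT nuclei, 241 in MTR4-null nuclei, 0 in WT cytoplasm and 34.1 in MTR4-null cytoplasm, while its host Rpl13a stood at 123, 132, 103 and 83.6. Snord15b, of 145 nt, was listed at 586, 275, 0 and 69.1, while its host Rps3 stood at 13.1, 51.9, 20.9 and 34.2. The snoRNA was lower and the host higher in MTR4-null nuclei in the second case, and the snoRNA alone was higher in the first. Both are shorter than the selected cDNA, so their FPKM rest on an unknown part of the library.

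Genes that hold a snoRNA had a lower cytoplasmic median than those that do not, -0.54 over 30 genes against -0.28 over 53, with 8 (26.7%) and 5 (9.43%) genes at least 2-fold lower, where the background is 21.4%. These counts depend on the scaling. Past 2-fold under all 4 scalings were only Rpl30 and Rpl37 of the 8, and Rpl34 and Rps27 of the 5. Summed with their listed copies, Rpl30 was at -0.56 and Rpl34 at -0.76. In the nucleus the medians were 0.50 and 0.51.

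**Figure D5:**
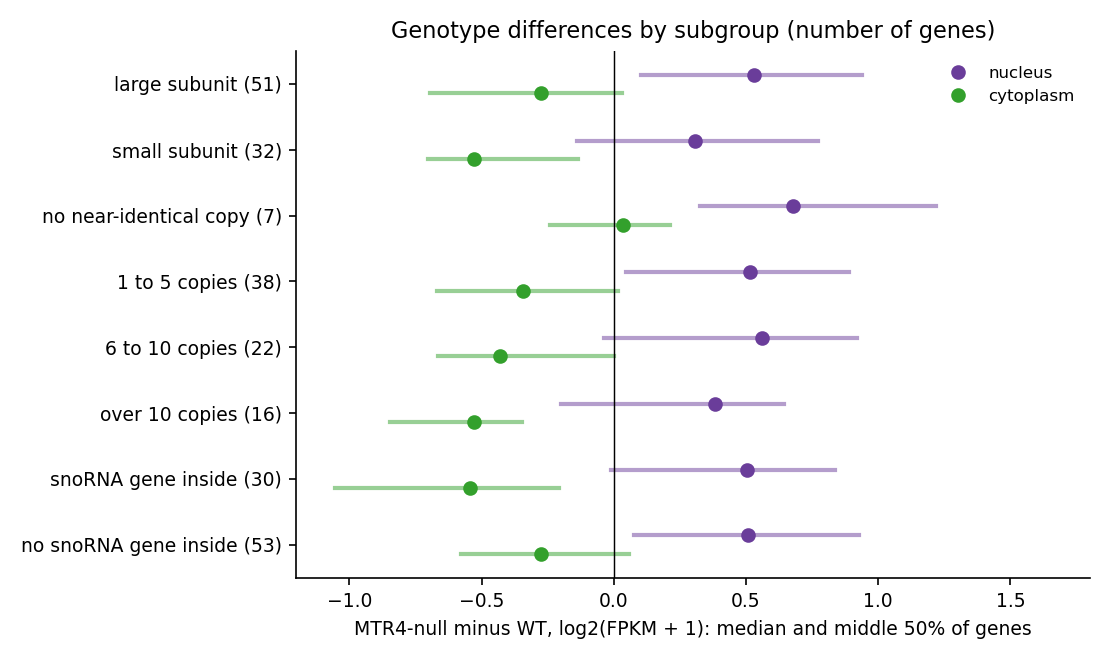
Median genotype difference (points) and the range of the middle 50% of genes (lines) for subgroups of the ribosomal protein genes, in the nucleus (purple) and the cytoplasm (green), as MTR4-null minus WT on the log2(FPKM + 1) scale. On the deposited scale nuclear medians lie between 0.31 and 0.68 and cytoplasmic medians between -0.54 and 0.03, and the ranges of the subgroups overlap.

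Within WT oocytes the family lay close to equal FPKM in both compartments. The median difference, nucleus minus cytoplasm, was -0.17, against -0.04 over all genes. Centred on genes with at least 1 FPKM in every column it was -0.04, against 0.09 over all genes. At least 2-fold higher in the nucleus were 4 members (4.82%), where the background is 12.4%, and 4 (4.82%) were higher in the cytoplasm, where the background is 4.71%. The comparisons between compartments use the same columns as those between genotypes.

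On the nuclear side in WT were Rpl10l (1.49), Rpl34 (1.16), Rpl22l1 (1.07) and Rps21 (1.05), followed by Rpl39 at 0.95, under 2-fold. The cytoplasmic side included Rpl26 (-2.65), Rpl30 (-1.65) and Rpsa (-1.09), and Rps26 lay just under 2-fold at -0.93. Summed with their copies, Rpl26 was at -0.17, Rpl30 at 0.24 and Rpl34 at 0.07, which left 3 members on the nuclear and 2 on the cytoplasmic side. The split of 4 and 4 became 5 and 2 when centred on genes with at least 1 FPKM in every column, beside 14.8% and 3.51% over all genes. Large and small subunit medians were -0.18 and -0.10.

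In MTR4-null oocytes 79 of the 83 genes had more FPKM in the nucleus. The median difference was 0.62, but it was 0.52 over all genes, and the family's median became 0.02 when centred on genes with at least 1 FPKM in every column and -0.01 when rescaled without small RNAs. At least 2-fold higher in the nucleus were 13 members (15.7%), where the background is 17.0%, and 0 were higher in the cytoplasm, where the background is 1.84%. With centring or rescaling 3 genes remained past 2-fold, Rpl34, Rps20 and Rpl22l1. Over all genes 4.23% were then at least 2-fold higher in the nucleus with that centring and 5.99% with rescaling. Large and small subunit medians were 0.64 and 0.58.

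Rpl34 stood furthest to the nucleus, at 173 FPKM against 15.5 in the cytoplasm (3.40), and at 272 against 91.3 when summed with Rpl34-ps1 (1.57). Rps20 stood at 315 against 87.6 (1.83), Rpl22l1 at 20.97 against 6.06 (1.64), Rps25 at 85.8 against 32.3 (1.38) and Rpl26 at 68.5 against 26.0 (1.36). The lowest ratios were those of Rps23 (-0.34), which lies at the decoding centre, Rps27 (-0.26), Rps21 (-0.17) and Rpl9 (-0.06), the 4 genes below 0.

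The genotypes kept the order of the members' levels less closely than the compartments did. Across the 83 genes, Spearman's rho was 0.87 between the nuclei of the genotypes and 0.85 between their cytoplasms. Between the compartments it was 0.91 in WT and 0.93 in MTR4-null. On the log2(FPKM + 1) scale, the nuclei of the genotypes had a Pearson's r of 0.85, their cytoplasms 0.88, and the compartments of either genotype 0.94. Over all 14270 genes the values were 0.79, 0.83, 0.88 and 0.92 by either measure. They describe these columns, and genes are not independent replicates.

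Fau and Gnb2l1, outside the symbol rule, also stood higher in MTR4-null nuclei. Fau, which codes for a small subunit protein made as a fusion, stood at 251 FPKM in WT nuclei, 403 in MTR4-null nuclei, 247 in WT cytoplasm and 200 in MTR4-null cytoplasm. Gnb2l1, the scaffold protein Rack1, stood at 43.2, 94.9, 67.8 and 67.8 in the same order. The nuclear differences were 0.68 for Fau and 1.12 for Gnb2l1.

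Other genes with TOP mRNAs, among them elongation factors, gave 5 of 21 higher and 2 lower in the nucleus (median 0.52) and 2 higher and 6 lower in the cytoplasm (median -0.60). The nuclear shares of 23.8% and 9.52% lay near the background of 23.9% and 12.3%, and the cytoplasmic shares were 9.52% and 28.6% beside 15.0% and 21.4%. Pabpc1, the poly(A) binding protein, stood at 20.1 FPKM in WT nuclei, 55.1 in MTR4-null nuclei, 18.2 in WT cytoplasm and 43.5 in MTR4-null cytoplasm, and Eif3e, of the initiation factor eIF3, at 39.4, 13.9, 47.5 and 16.1. They differed in opposite directions, each in both compartments. Of 18 regulators of TOP mRNAs, 4 were higher and 1 lower in the nucleus and 5 higher and 4 lower in the cytoplasm (medians -0.01 and -0.21), or 22.2%, 5.56%, 27.8% and 22.2% beside the same background. Larp1, which binds the TOP tract, stood at 10.8, 23.4, 5.76 and 23.0, and Rptor, the mTORC1 subunit, at 3.99, 20.7, 2.95 and 9.92, both higher without MTR4 in each compartment.

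Of 92 genes of ribosome biogenesis, the nucleus had 19 higher and 7 lower (median 0.31) and the cytoplasm 15 higher and 25 lower (median -0.55). Dkc1, the pseudouridine synthase of box H/ACA particles, stood at 51.3 FPKM in WT nuclei, 12.2 in MTR4-null nuclei, 41.2 in WT cytoplasm and 15.6 in MTR4-null cytoplasm. Polr1c, a subunit of RNA polymerases I and III, stood at 3.81, 30.9, 4.21 and 21.3. The 2 genes differed in opposite directions in both compartments. In the nucleus 20.7% of the assembly genes stood higher and 7.61% lower, both below the background of 23.9% and 12.3%. In the cytoplasm the shares were 16.3% and 27.2% beside 15.0% and 21.4%. The nuclear median of the assembly genes lay below that of the 83 genes.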

How the data were processed

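Total RNA of oocyte nuclei and cytoplasms was depleted of ribosomal RNA and read as paired ends of 150 bp, per the labels' protocols. The authors deposited FPKM values, 1 column per group. TopHat2 2.1.1, Cufflinks 2.2.1 and the build mm9 come from the submitters' processing notes. Settings, gene annotation, strand use and the way libraries were joined into columns are not given in the sources used here. Of the members' values, 50.6% to 71.1% per column end in the decimals of 1/3 or 2/3, the pattern of a mean of 3 values or a multiple of 3, while the labels list 2 libraries for 3 of the groups. Read depth is unknown, and 0 other columns of per-sample values were left unused. A last line without a gene name, equal to the column sums, was left out.

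Groups came from the sample labels and members from the symbol rule. Differences were taken on log2(FPKM + 1), with a pseudocount of 1, over the 14270 genes with at least 1 FPKM in at least 1 column, and a gene counted as higher or lower at 2-fold. The counting was tested on simulated data. With 1 column per group no test was possible. Near-identical copies were found with BLAST 2.17.0 (at least 95% identity over at least 80% of the coding sequence) among GENCODE M21 transcripts, which are on GRCm38, not the authors' build, so only sequences were compared. All 83 genes matched that annotation (Rps3a as Rps3a1). Start windows are from RefSeq (GRCm38.p6). Tables were made with pandas 2.3.3 and numpy 2.4.6 in Python 3.11.15, and plots with matplotlib 3.10.9.

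Named genes were those at least 2-fold apart between genotypes (up to 10 per direction and comparison, with 5 FPKM or more in either column), the 3 highest and 3 lowest per subunit, paralogs with their parents, the ends of each role group, the 5 most extreme per direction between compartments, and up to 4 per other list. Other genes were named after their values were seen. Some genes the rule picks are not reported here by name, though counts and medians include them. Members and lists were chosen with earlier results of these data known. Alternatives were another pseudocount, no filter, a mean of at least 5 FPKM, 3 other scalings, and leaving out the paralogs. Summing members with listed copies was chosen after seeing the data.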

Additional observations from a re-analysis of the deposited data

Results flagged for a closer look

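The median genotype difference of the 83 ribosomal protein genes had opposite signs in the 2 compartments, 0.51 in the nucleus and -0.39 in the cytoplasm (MTR4-null minus WT, log2(FPKM + 1)). The difference between compartments was not tested, since each group has 1 column. Over all 14270 genes the medians were 0.21 and -0.26, so the sign change is not particular to these genes. Centred on genes with at least 1 FPKM in every column the family's medians were 0.31 and 0.13, and those of all genes 0.0077 and 0.26. On that scale the family's median lay above that of all genes in the nucleus and below it in the cytoplasm. The cytoplasmic order was the same on the deposited scale but not under every setting. Rescaled without small RNAs the family's cytoplasmic median was 0.20 and that of all genes 0.11. Over genes with a mean of at least 5 FPKM the 2 medians were -0.40 and -0.54.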

How the results depend on the processing

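Of 16 values (a median, counts higher and lower, and the gap between subunits in each of 4 comparisons), none moved beyond 0.1 (medians and gaps) or 1.5 times (counts) with a pseudocount of 0.1 or with a mean of at least 5 FPKM, which leaves 82 of the 83 genes. Running without the filter could move none of them, since all 83 genes pass it. The gap between subunits stayed within that range under all 8 alternatives. In the following, values are given for centring on genes with at least 1 FPKM in every column, centring on all genes kept, and rescaling without small RNAs, in this order. In the nucleus the median of 0.51 became 0.31, 0.30 and 0.33, and the 15 genes higher became 8, 8 and 9. The share higher over all genes went from 23.9% to 19.1%, 18.9% and 20.2%. In the cytoplasm the median of -0.39 became 0.13, -0.13 and 0.20, and the 13 genes lower became 4, 6 and 4. The 5 genes higher there became 10 with the first and 12 with the third, and 3 without the paralogs and Rpl7l1. Over all genes the cytoplasmic share higher went from 15.0% to 24.7%, 19.6% and 22.6%. The share lower went from 21.4% to 6.94%, 13.0% and 7.51%. Between compartments in MTR4-null the median of 0.62 became 0.0236, 0.10 and -0.0106, and the 13 genes higher in the nucleus became 3 each time. The share over all genes went from 17.0% to 4.23%, 4.96% and 5.99% in that comparison. In WT the median of -0.17 became -0.0448 with the first and -0.0282 with the third, the 4 genes higher in the cytoplasm became 2 with the first, the third and the sums with copies, and the 4 higher in the nucleus became 2 without the paralogs and Rpl7l1. Scaling moves all genes alike by construction, fewer genes enter without paralogs, and otherwise the cause was not tested. No paired analysis was possible because each group has 1 column, and leaving out single libraries could not be run for the same reason. The depth behind each value is unknown, so the precision of low values is too.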
